A study of Mus musculus with 18 samples.

Results

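Extraembryonic endoderm stem cells (XEN cells) of the mouse were compared after 2 days of hypoxia and in normoxia. XEN cells are grown from the primitive endoderm, the layer of the blastocyst that forms the yolk sac endoderm. Of the 18 libraries of the series, 4 entered the comparison, 2 from XEN cells kept at 20% oxygen and 2 from XEN cells kept at 2% oxygen for 2 days. A further 2 libraries, from XEN cells on day 7 of hypoxia, shared the estimate of the spread between replicates. No normoxic library is labelled with day 2 or day 7, so time in culture and time in hypoxia cannot be told apart. All 6 came from unedited cells, grown on gelatin without feeder cells in serum medium mixed with medium that had been conditioned by mouse embryonic fibroblasts. The study's methods call the 2 libraries of a condition biological replicates. The labels give no cell line and no passage. Nothing states whether replicates were separate cultures prepared on separate days, so the tests cover only the spread between these libraries. Of the 11538 genes in the XEN table, 10894 had a TPM (transcripts per 1000000 transcripts) above 0.4 in at least 2 of the 6 libraries and were tested.

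When oxygen is scarce, the prolyl hydroxylases that mark HIF-alpha proteins for VHL-mediated destruction lose activity, and HIF-alpha pairs with ARNT at DNA that holds the letters ACGTG or GCGTG. Textbook targets carry glucose into the cell, run glycolysis, export lactate, hold pyruvate back from the mitochondria and remove mitochondria by autophagy. Endoderm of the yolk sac has a parietal branch, which lays down basement membrane and is partly mesenchymal, and a visceral branch, an absorptive epithelium that secretes apolipoproteins.

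The libraries held the XEN markers that their labels call for. All 10 XEN markers were tested, with Gata4 at 159 to 197 TPM, Sox17 at 1009 to 1393 and Sparc at 3202 to 3971 over the 6 libraries. Of 6 fibroblast markers only Col1a2 was in the table, at no more than 0.272 TPM, and Col1a1, Col3a1, Thy1, Postn and Prrx1 had no entry. Pou5f1 lay between 0.842 and 1.48 TPM, and Nanog, Sox2, Zfp42, Cdx2, Eomes and Hand1 had no entry. Of a longer list of 13 genes known from pluripotent cells, 7 had an entry. These 7 summed to between 818 and 1493 TPM in a library, with up to 1193 TPM for a single gene. The libraries held 35291803 to 74520161 reads on genes, as recovered from the steps of the TPM values. The 2 normoxic libraries stood 50.2 apart as a Euclidean distance over log2(TPM + 0.5) of the genes tested, more than normoxia replicate 1 stood from day 2 replicate 2 (45.0). The 2 day 2 libraries stood 38.0 apart.

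No gene was differentially expressed (DE) on day 2 against normoxia when both a fold change over 1.5 and a p of at most 0.1 after Benjamini-Hochberg adjustment were asked for (0% of 10894 genes, limma, n = 2 against 2). The smallest adjusted p was 0.241. At the same thresholds the paper reports DE genes for this comparison from edgeR on counts, a test that was not run here. At an unadjusted p under 0.05 there were 846 genes with limma and 903 with voom on the recovered reads, which also made 0 calls. Without normoxia replicate 1, 61 genes passed, 51 of them higher and 10 lower on day 2, in a fit that takes the lone normoxic library to vary as the others do. Genes are therefore described by their values. A gene was counted as separated where both day 2 libraries lay beyond both normoxic ones and the fold change exceeded 1.5, which is no test. In bulk RNA, fewer cells of a kind and less RNA per cell cannot be told apart. There were 419 such genes higher on day 2 (3.85% of those tested) and 388 lower (3.56%). Without the size limit the libraries of the 2 groups did not overlap for 2138 genes that were higher (19.6%) and 2331 that were lower (21.4%). Over all tested genes the median log2 fold change was -0.01. Fold changes below are differences of the mean log2(TPM + 0.5) with their standard error (SE), which understates genes of low TPM. TPM values are given for replicate 1 and then replicate 2.

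**Figure D1:**
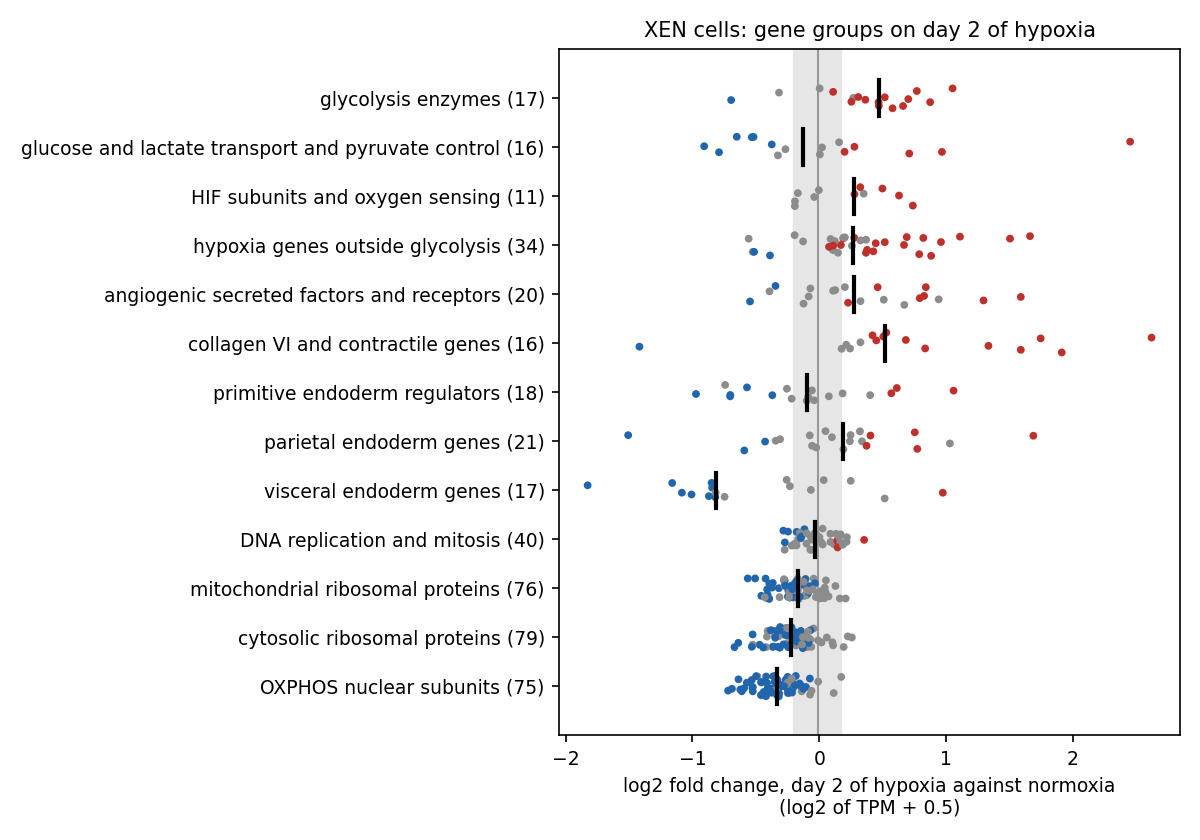
Log2 fold change of each tested gene on day 2 of hypoxia against normoxia in XEN cells, by gene group, with the number tested in parentheses. Red and blue points are genes with both day 2 libraries above or below the normoxic pair, grey points are genes whose libraries overlapped, black bars are group medians (0.47 for glycolysis, -0.82 for visceral endoderm and -0.33 for OXPHOS) and the grey band is the interquartile range of all genes tested.

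Most glycolysis enzymes had more transcript in both day 2 libraries than in both normoxic ones. Of 17 enzymes listed and tested, 15 had a positive fold change and 13 (76.5%) had non-overlapping libraries, against 19.6% of all genes, and the median log2 fold change was 0.47. Aldoc, an aldolase isoform, had 1.54 and 2.03 TPM in normoxia and 4.24 and 4.17 on day 2 (log2 fold change 1.05, SE 0.21). Tpi1, the triose phosphate isomerase, had 2121 and 2073 TPM in normoxia and 3342 and 3822 on day 2 (0.77, SE 0.19). In both, the day 2 libraries lay well clear of the normoxic ones. Pfkl, the liver form of the phosphofructokinase that commits sugar to the pathway, went from 127 and 169 TPM to 219 and 330.1 (0.87, SE 0.32). Ldha, the lactate dehydrogenase subunit of glycolytic tissue, had 900.1 and 861 TPM in normoxia and 1264 and 1624 on day 2 (0.70, SE 0.22). Ldhb, the subunit of oxidative tissue, was placed the other way, with 19.2 and 24.8 TPM in normoxia and 12.9 and 13.7 on day 2 (-0.69, SE 0.21). Eno1 (enolase) was also separated and higher, with 830.4 and 707 TPM against 1063 and 1380.2 (0.66, SE 0.26). Gapdh, the enzyme that follows triose phosphate isomerase, had 9188 and 8593 TPM in normoxia and 9637 and 9535 on day 2, a shift of 0.11 (SE 0.21). The group median was 0.31 without day 2 replicate 2 and 0.65 without normoxia replicate 1.

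Transporters and pyruvate switches did not share a direction, since 5 of 16 tested (17 listed) (31.2%) were higher and 6 (37.5%) lower with non-overlapping libraries, against 19.6% and 21.4% of all genes. The median was -0.13 and turned to 0.12 without normoxia replicate 1. The member with the widest difference was Slc16a3, the lactate exporter MCT4, with 3.48 and 1.49 TPM in normoxia and 15.0 and 14.7 on day 2. Its log2 fold change of 2.45 (SE 0.34) had an adjusted p of 0.287 (limma). That p was 0.0248 without normoxia replicate 1 and lay between 0.0248 and 0.969 over the alternatives tried. Slc2a1, the glucose carrier GLUT1, had 89.5 and 105 TPM in normoxia and 174 and 208 on day 2 (0.97, SE 0.20). Pdk1, the kinase that turns off pyruvate dehydrogenase, had 1.56 and 2.16 TPM against 2.54 and 4.33, so its day 2 libraries differed more from each other than the nearest ones of the 2 groups did. The members that were lower without overlap included carriers of pyruvate, lactate and sugar. Mpc1, a subunit of the mitochondrial pyruvate carrier, had 4.78 and 3.48 TPM in normoxia and 1.76 and 2.61 on day 2 (-0.79, SE 0.31). Slc16a1, the monocarboxylate carrier MCT1, had 337 and 392 TPM against 231 and 279 (-0.52, SE 0.16). Slc2a8, an intracellular sugar carrier, had 10.03 and 12.2 TPM against 4.39 and 7.26 (-0.91, SE 0.27). Pfkfb2, which makes the activator of phosphofructokinase, was separated and lower at 9.73 and 6.38 TPM against 4.64 and 5.05. Slc2a3, the glucose carrier GLUT3, overlapped between groups, at 563 and 289.7 TPM against 292 and 386. The median of the list was 0.12 without normoxia replicate 1, a turn of its sign.

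Among the oxygen sensors, 2 of the 3 prolyl hydroxylases of the HIF pathway were higher on day 2. Egln3 (PHD3) had 11.8 and 14.4 TPM in normoxia and 21.2 and 23.1 on day 2 (0.74, SE 0.20), and on day 7 it reached 80.6 and 110.2. Egln1 (PHD2) had 63.8 and 67.6 TPM in normoxia and 94.5 and 109.7 on day 2 (0.63, SE 0.25). Both are themselves known HIF targets. Egln2 (PHD1) overlapped, at 96.6 and 91.5 TPM against 73.9 and 91.6, and so did Hif1an (FIH), the asparaginyl hydroxylase of HIF, at 361 and 333 against 279 and 341. The transcription factors overlapped too. Hif1a had 103 and 85.0 TPM in normoxia and 156 and 91.5 on day 2, Epas1 (HIF-2 alpha) had 299.7 and 347 against 305 and 261, and Arnt had 14.1 and 16.1 against 15.9 and 14.2. In all, 5 (45.5%) of the 11 tested members (13 listed) had non-overlapping libraries and were higher, against 19.6% of all genes. Without overlap 0 were lower, against 21.4% of all genes.

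Hypoxia genes that act outside glycolysis were higher in 28 of the 34 that were tested (48 listed), with a median of 0.27. Of the 34, 19 (55.9%) had non-overlapping libraries and were higher, against 19.6% of all genes. Without overlap 2 (5.88%) were lower, against 21.4% of all genes. The 9 separated members (26.5%, against 3.85% of all genes), all higher, included 2 of mitophagy. Bnip3 had 21.1 and 9.14 TPM in normoxia and 40.2 and 50.7 on day 2 (1.66, SE 0.36), with an adjusted p of 0.387 (limma), which was 0.0289 without normoxia replicate 1 and 0.0289 to 0.977 over the alternatives. Bnip3l, its close relative, had 31.7 and 34.9 TPM against 56.9 and 58.9 (0.79, SE 0.19). Here the replicates of each group lay within a few TPM of each other. Ankrd37, a small ankyrin-repeat gene, had 2.24 and 2.48 TPM in normoxia and 4.18 and 7.61 on day 2 (1.11, SE 0.28). Car12, a carbonic anhydrase of the cell surface, had 19.9 and 21.0 TPM against 38.8 and 34.4 (0.82, SE 0.23). Ak4, a mitochondrial adenylate kinase, had 11.5 and 13.4 TPM against 16.7 and 32.4, and Fam162a, a mitochondrial protein, had 9.56 and 9.28 against 14.1 and 16.6. Vldlr, a lipoprotein receptor, had 0.228 and 0.279 TPM against 0.784 and 0.650, and Bhlhe40, a transcriptional repressor, 206 and 124 against 355 and 273.

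Other textbook targets overlapped between normoxia and day 2 or differed little. Vegfa, the endothelial growth factor, had 125 and 80.9 TPM in normoxia and 116 and 115 on day 2. Adm (adrenomedullin) had 0.285 and 0.872 TPM against 0.884 and 0.722, and 17.2 and 18.8 on day 7. P4ha1, a collagen prolyl hydroxylase, had 325 and 306 TPM against 362 and 310.3. For each, the libraries of normoxia and day 2 overlapped. Kdm3a, a histone demethylase, did not overlap but moved little, from 19.7 and 18.8 TPM to 20.3 and 20.4. No member of the list was separated and lower.

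**Figure D2:**
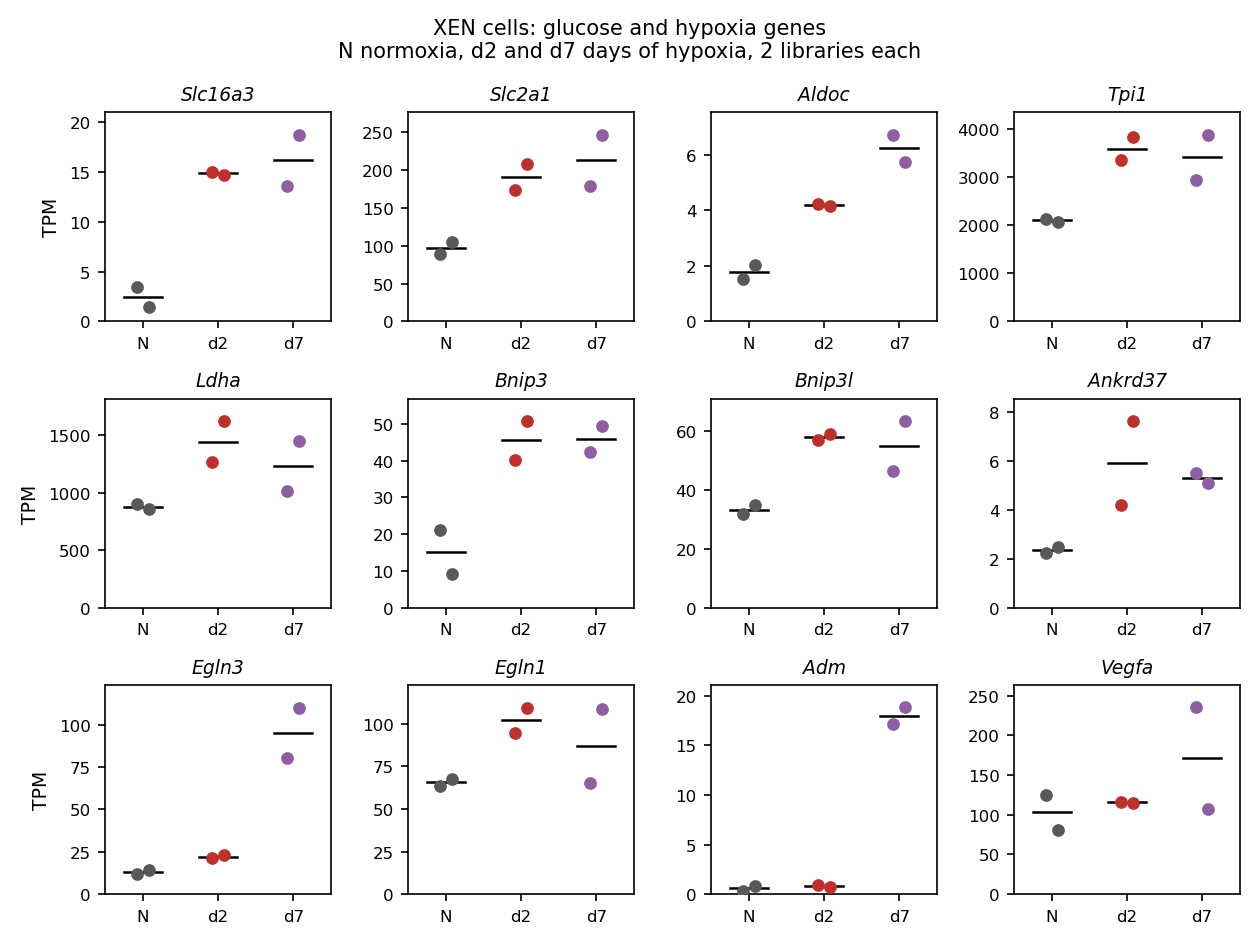
TPM of 12 glucose and hypoxia genes in the 6 XEN libraries, on linear axes from 0, with points for the 2 libraries of normoxia (N), day 2 (d2) and day 7 (d7) and bars for their means. Slc16a3, Slc2a1, Bnip3 and Bnip3l were higher in both day 2 libraries than in both normoxic ones, whereas Adm stayed under 1 TPM on day 2 and reached 18.8 on day 7.

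Promoters of the genes above are shown because these genes were higher together and because the letters bound by HIF can be looked for in them. Only members of the glycolysis, transport and hypoxia lists that were separated and higher were looked at, not those separated and lower. The 5 with the highest fold change whose promoter held ACGTG or GCGTG on either strand were Slc16a3, Bnip3, Ankrd37, Aldoc and Slc2a1. Each run covers 250 bases before and 50 bases after a gene start given by RefSeq in build GRCm38.p6, 300 in all, written 5′ to 3′ on the strand of the gene. Capitals mark both motifs and their reverse complements, and neighbouring matches may share letters. Where a gene has several promoters the first listed is given. The RefSeq start of Ankrd37 lies inside the span that the annotation of the files gives that gene, which ends at 46005707. The positions were Slc16a3 chr11:120948817-120949116 (+ strand), Bnip3 chr7:138909457-138909756 (- strand), Ankrd37 chr8:45999801-46000100 (- strand), Aldoc chr11:78322823-78323122 (+ strand), Slc2a1 chr4:119108495-119108794 (+ strand).
Slc16a3 promoter: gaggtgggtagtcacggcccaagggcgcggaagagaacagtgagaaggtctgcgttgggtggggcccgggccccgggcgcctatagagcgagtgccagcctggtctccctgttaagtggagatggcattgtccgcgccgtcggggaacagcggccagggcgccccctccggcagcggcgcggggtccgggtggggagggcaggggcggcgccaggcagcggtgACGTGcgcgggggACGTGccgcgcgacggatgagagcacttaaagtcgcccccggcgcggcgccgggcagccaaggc
Bnip3 promoter: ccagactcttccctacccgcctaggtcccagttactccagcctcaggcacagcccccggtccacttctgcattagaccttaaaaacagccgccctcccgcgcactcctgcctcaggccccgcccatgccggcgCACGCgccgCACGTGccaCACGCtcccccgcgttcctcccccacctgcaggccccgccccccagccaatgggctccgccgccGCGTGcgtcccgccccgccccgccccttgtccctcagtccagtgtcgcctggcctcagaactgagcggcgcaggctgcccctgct
Ankrd37 promoter: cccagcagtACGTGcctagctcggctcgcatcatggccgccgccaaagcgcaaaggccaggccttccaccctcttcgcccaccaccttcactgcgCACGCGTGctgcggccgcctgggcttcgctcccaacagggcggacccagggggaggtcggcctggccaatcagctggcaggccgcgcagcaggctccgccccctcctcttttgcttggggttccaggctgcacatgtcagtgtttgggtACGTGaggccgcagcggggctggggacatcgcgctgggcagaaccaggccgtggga
Aldoc promoter: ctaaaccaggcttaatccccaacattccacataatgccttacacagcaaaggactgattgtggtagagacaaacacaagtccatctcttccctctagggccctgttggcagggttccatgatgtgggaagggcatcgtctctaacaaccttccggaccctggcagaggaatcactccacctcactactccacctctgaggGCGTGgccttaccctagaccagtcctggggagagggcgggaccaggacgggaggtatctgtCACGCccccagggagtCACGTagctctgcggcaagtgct
Slc2a1 promoter: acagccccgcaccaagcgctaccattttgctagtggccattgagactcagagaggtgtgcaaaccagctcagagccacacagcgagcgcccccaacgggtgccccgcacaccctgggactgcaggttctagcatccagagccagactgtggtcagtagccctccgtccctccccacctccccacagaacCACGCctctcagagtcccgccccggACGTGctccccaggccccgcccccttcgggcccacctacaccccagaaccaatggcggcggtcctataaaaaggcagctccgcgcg
Slc16a3 held 2 matches to ACGTG and 0 to GCGTG. Bnip3 held 2 and 3, Ankrd37 held 2 and 2, Aldoc held 1 and 2, and Slc2a1 held 1 and 1. Either motif occurred in 43.8% of 32851 promoters of this length, and in 63.5% of the 11193 promoters of genes tested here, so a match is common. ACGTG alone occurred in 26.2% of the promoters of tested genes and GCGTG in 51.7%. Of the 17 members that were separated and higher, 14 were matched in the promoter table, and 11 of these held a motif in any promoter. A gene with several promoters counted if any of them held a motif. That count is per gene, so it cannot be set against the shares above, which are per promoter. Bhlhe40 and Bnip3l were among those not matched, and the windows of Car12, Tpi1 and Vldlr held neither motif.

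Outside the glucose and oxygen genes, contractile genes held several of the highest fold changes. Of 16 tested members of a list of collagen VI and contractile genes (24 listed), 15 had a positive fold change, and the median was 0.52. Like the other lists it was chosen with earlier results of these data known, so its counts are a description only. Of the 16, 11 (68.8%) had non-overlapping libraries and were higher, against 19.6% of all genes. Myl9, the regulatory light chain of smooth muscle myosin, had 0.296 and 0.211 TPM in normoxia and 4.50 and 3.78 on day 2. Its log2 fold change was 2.62 (SE 0.52) with limma and 3.98 with voom on the recovered reads, where the normoxic libraries held 6 and 7 reads. Acta2, smooth muscle actin, had 6.10 and 1.83 TPM in normoxia and 12.4 and 16.4 on day 2 (1.91, SE 0.46). Cnn1, calponin, had 1.77 and 1.34 TPM against 5.39 and 7.48 (1.75, SE 0.25). Tpm2, beta-tropomyosin, had 3.30 and 1.5 TPM against 8.29 and 7.32 (1.59, SE 0.52). Acta1, skeletal muscle actin, which was not on the list, had 10.5 and 2.4 TPM against 20.2 and 32.5 (2.21, SE 0.60). In these genes normoxia replicate 2 held less than normoxia replicate 1, and both day 2 libraries lay above both. Des, the muscle intermediate filament desmin, was the exception, with 7.77 and 10.5 TPM in normoxia and 4.16 and 2.22 on day 2 (-1.42, SE 0.39). Col6a1, a chain of collagen VI, had 0.142 and 0.108 TPM in normoxia, 0.989 and 1.17 on day 2, then 74.0 and 39.7 on day 7. Against day 2, day 7 had 4 DE genes (0.0367% of 10894, limma), and Col6a1 was one, with an adjusted p of 0.0101. Col6a2, another chain of collagen VI, Adm and Egln3 were the others, and Col6a2 was singled out after its values were seen. Col6a2 was listed at 0 and 0.0541 TPM in normoxia and had 0.205 and 0.203 on day 2, then 16.3 and 6.28 on day 7. Of the defining fibroblast markers 5 had no entry, as given above, and the 3 members of a list of 16 fibroblast genes that had an entry summed to between 0.769 and 2.01 TPM in a library (1.61 and 0.769 in normoxia, 2.01 and 1.95 on day 2).

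**Figure D3:**
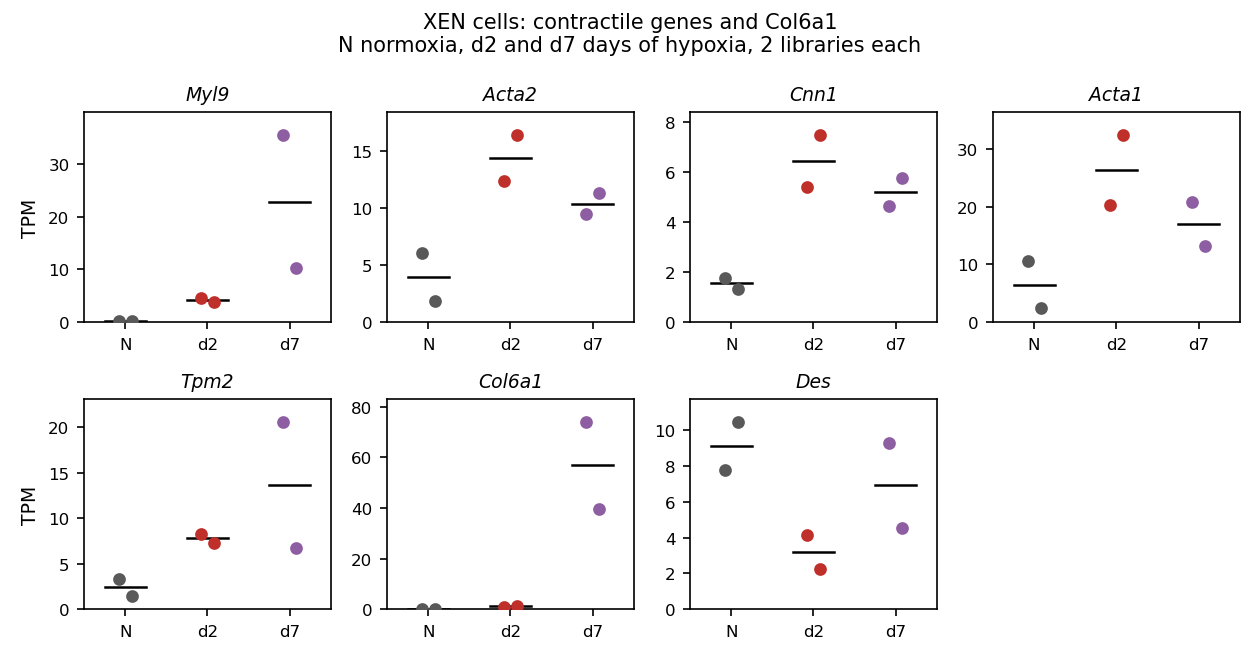
TPM of 6 contractile genes and Col6a1 in the 6 XEN libraries, on linear axes from 0, with points for the 2 libraries of normoxia (N), day 2 (d2) and day 7 (d7) and bars for their means. Both day 2 libraries lay above both normoxic ones for each gene but Des, which lay below, and Col6a1 reached 74.0 and 39.7 TPM on day 7.

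Genes of the visceral branch of the endoderm were lower on day 2. Of 17 tested (32 listed), 13 had a negative fold change and 8 (47.1%) were separated and lower, against 3.56% of all genes, with a median of -0.82. Ihh (Indian hedgehog, chr1:74945315-74951672 in GRCm38), the hedgehog ligand of the yolk sac endoderm, had 80.1 and 59.4 TPM in normoxia and 20.4 and 17.9 on day 2. Its log2 fold change of -1.83 (SE 0.20) had an adjusted p of 0.241 (limma), the smallest reached, and it had 24.7 and 28.8 TPM on day 7. Among the other separated members, Mttp, the microsomal protein that loads lipid onto apolipoprotein B, had 14.7 and 14.4 TPM in normoxia and 10.3 and 4.70 on day 2 (-1.01, SE 0.35). Soat2, which esterifies cholesterol, had 11.9 and 7.92 TPM against 4.60 and 4.05 (-1.08, SE 0.40). Apom, an apolipoprotein, had 4.44 and 1.91 TPM against 1.75 and 1.08 (-0.87, SE 0.37). Spink1, a secreted protease inhibitor, had 6.57 and 13.8 TPM against 2.68 and 5.86 (-1.16, SE 0.43). For Apom and Spink1 the gap between the groups was narrower than the spread within normoxia. Dkk1, a secreted Wnt antagonist, was the separated member that was higher, at 23.2 and 46.6 TPM against 56.1 and 75.4 (0.97, SE 0.33). The median of the list was -0.48 without day 2 replicate 2 and -0.56 without normoxia replicate 1.

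The regulators best known for defining the lineage overlapped between the conditions. Gata6 had 155 and 244 TPM in normoxia and 214 and 167 on day 2, Gata4 had 197 and 193 against 197 and 179, and Pdgfra, the receptor that marks primitive endoderm, had 168 and 218 against 186 and 172. Sox17 had 1289 and 1009 TPM against 1207 and 1393. None of the 4 was ordered by condition. Of the 18 regulators tested (21 listed), 2 (11.1%) were separated and higher and 3 (16.7%) lower, against 3.85% and 3.56% of all genes. Their median was -0.09, which turned to 0.05 without day 2 replicate 2. Sox7, an endoderm SOX factor, had 182 and 407 TPM in normoxia and 624 and 518 on day 2 (1.06, SE 0.39). Klf6, a zinc-finger factor, had 357 and 232 TPM against 428 and 453 (0.61, SE 0.22). Lhx1, a homeobox factor of the anterior visceral endoderm, had 3.23 and 5.38 TPM against 1.95 and 1.83 (-0.97, SE 0.29). Cited1, a transcriptional co-regulator, had 403 and 397 TPM against 286 and 211 (-0.70, SE 0.22). Hnf4a, a nuclear receptor of the visceral endoderm, had 5.73 and 3.11 TPM against 3.06 and 1.89, the nearest libraries of the 2 groups being almost level.

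Of 21 tested genes of the parietal branch, 5 (23.8%) were higher and 3 (14.3%) lower without overlap, against 19.6% and 21.4% of all genes. Separated were 3 (14.3%) that were higher and 2 (9.52%) that were lower, against 3.85% and 3.56% of all genes. The median was 0.19. Krt19, a keratin, had 358 and 89.2 TPM in normoxia and 614 and 543 on day 2 (1.69, SE 0.57). Its adjusted p was 0.560 (limma), 0.0161 without normoxia replicate 1 and 0.0161 to 1.0 over the alternatives. Snai1, a repressor of epithelial genes, had 291 and 407 TPM against 668 and 518 (0.77, SE 0.29). Fst (follistatin), an activin antagonist, had 1208 and 912 TPM against 2059.8 and 1520.0 (0.75, SE 0.21). Aqp8, a water channel, had 629 and 683 TPM in normoxia and 266 and 199 on day 2 (-1.51, SE 0.24). Its replicates were close to each other in both conditions. Pga5, a pepsinogen, had 149 and 159 TPM against 108 and 96.2 (-0.59, SE 0.15). Leaving out normoxia replicate 2 or day 2 replicate 1 took the median of this list to 0.02 and 0.01.

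**Figure D4:**
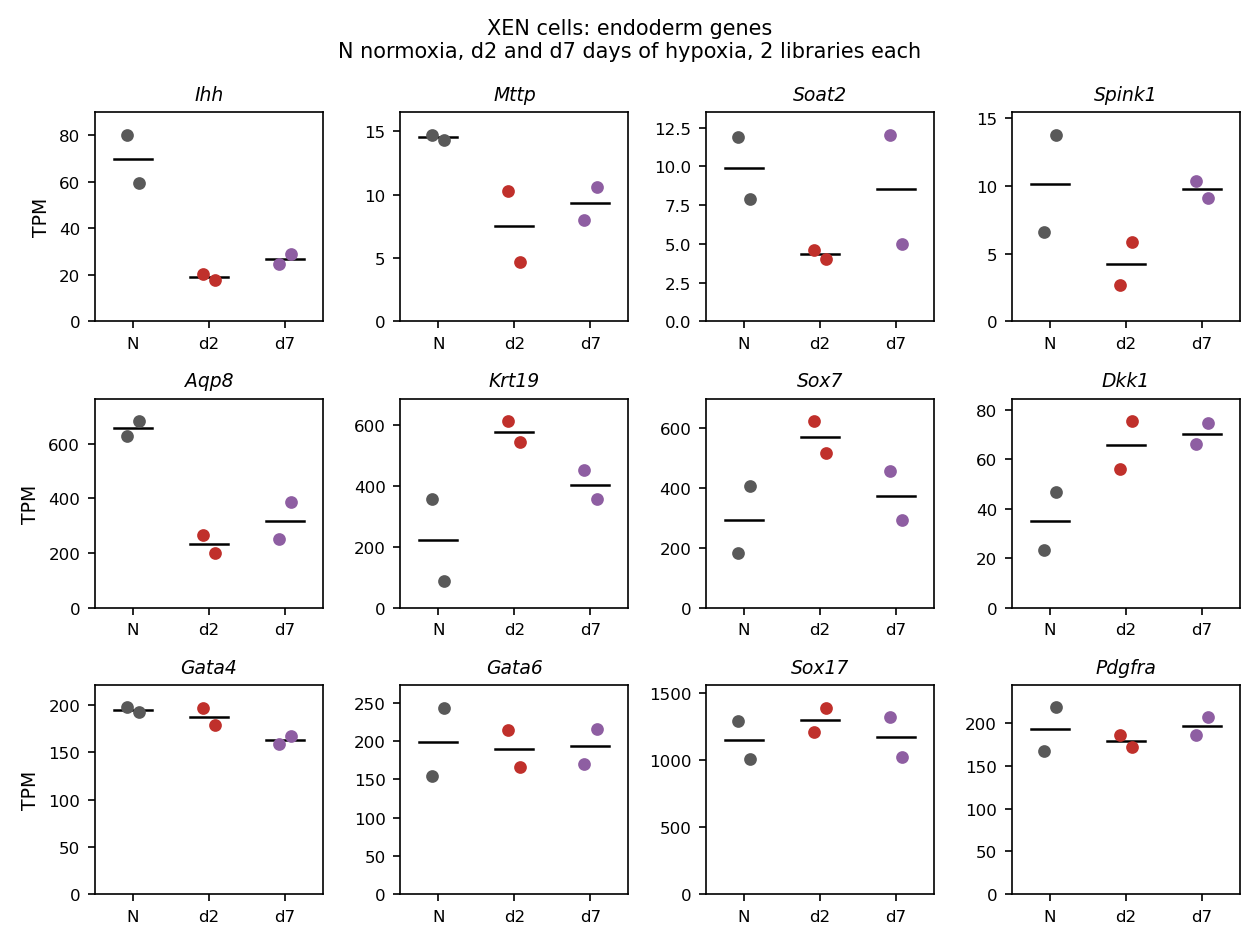
TPM of 12 endoderm genes in the 6 XEN libraries, on linear axes from 0, with points for the 2 libraries of normoxia (N), day 2 (d2) and day 7 (d7) and bars for their means. Ihh, Mttp, Soat2, Spink1 and Aqp8 were lower in both day 2 libraries, Krt19, Sox7 and Dkk1 were higher, and Gata4, Gata6, Sox17 and Pdgfra overlapped between normoxia and day 2.

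Nuclear genes of the oxidative phosphorylation (OXPHOS) machinery, which oxidises fuel with oxygen as the last electron acceptor, were lower by a small amount in nearly every case. Of 75 tested, 73 had a negative fold change and 59 (78.7%) had non-overlapping libraries and were lower, against 21.4% of all genes, while 0 were higher without overlap. The median was -0.33. Grouped by symbol into complexes, with Cycs (cytochrome c) left aside, the medians were -0.33 for the 37 genes of complex I, -0.36 for the 4 of complex II, -0.50 for the 9 of complex III, -0.33 for the 10 of complex IV and -0.31 for the 14 of ATP synthase. Separated and lower were 6 of the 75 (8.0%), against 3.56% of all genes. Cox7c, of complex IV, had 334 and 354 TPM in normoxia, 216 and 226 on day 2 (-0.64, SE 0.13), and 363 and 375 on day 7. Ndufb3, of complex I, had 72.4 and 63.2 TPM against 45.1 and 43.2 (-0.61, SE 0.15). Replicates were close in both genes. Uqcrfs1, the iron-sulfur protein of complex III, had 283 and 267 TPM against 140.4 and 198 (-0.72, SE 0.20). Atp5g3, a ring subunit of ATP synthase, had 1126 and 1004 TPM against 541 and 881 (-0.62, SE 0.24), and Ndufb6, of complex I, had 43.7 and 39.5 against 19.5 and 33.7. In these 3, day 2 replicate 1 was the lower of the 2. The median was -0.20 without that library and -0.43 without day 2 replicate 2. On day 7 the median of the same 75 genes against the same normoxic libraries was -0.17.

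**Figure D5:**
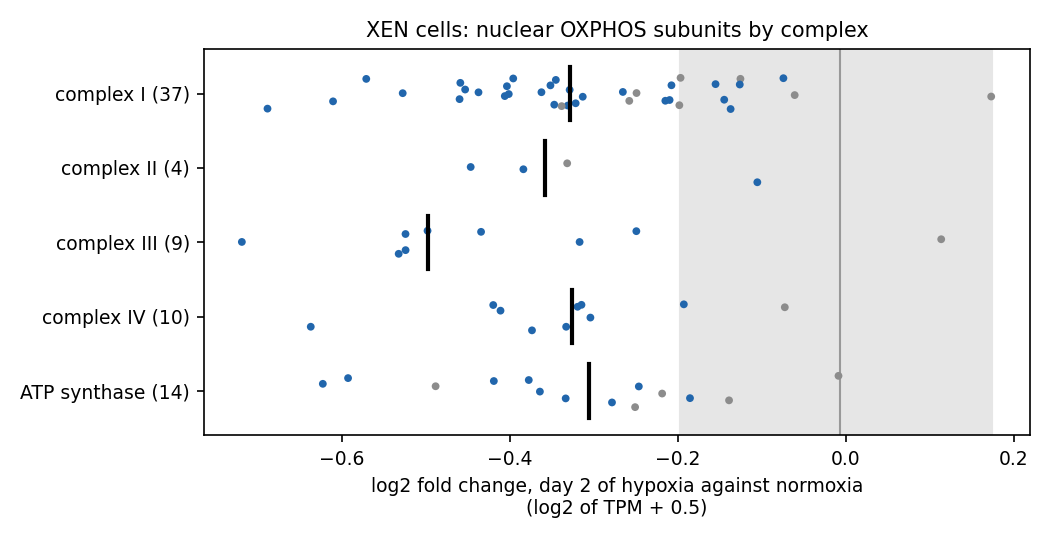
Log2 fold change on day 2 of hypoxia against normoxia for nuclear OXPHOS subunits in XEN cells, by complex, with the number of genes in parentheses. Blue points are genes whose 2 day 2 libraries lay below both normoxic ones, grey points overlapped, black bars are medians (between -0.31 and -0.50) and the grey band is the interquartile range of all genes tested.

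Ribosomal protein genes were lower by less. Of 79 cytosolic ones, 72 had a negative fold change and 41 (51.9%) had non-overlapping libraries and were lower, against 21.4% of all genes, with a median of -0.22. Rps27 had 2767 and 2735 TPM in normoxia and 1339 and 2238 on day 2, and 3034 and 2840.2 on day 7. Of 76 mitochondrial ones, 60 had a negative fold change and 35 (46.1%) had non-overlapping libraries and were lower, with a median of -0.17. Without day 2 replicate 1 the medians were -0.10 and -0.09, and without day 2 replicate 2 that of the cytosolic genes was -0.34. Ribosomal protein genes have many processed copies in the genome, so reads could be split between them. With genes put in 5 equal bins of length, the bin of the shortest (a span from start to end of 0.23 to 8.02 kb) had a median of -0.08 with 26.9% lower without overlap, and the bin of the longest had a median of 0.06 with 16.2%. This spread rested largely on day 2 replicate 1, without which the medians of these bins were -0.02 and 0.01. The median span was 7283 bases for OXPHOS genes, 3288 for cytosolic and 7981 for mitochondrial ribosomal protein genes. The part of gene length in these 3 results was not tested. Genes of DNA replication and mitosis had a median of -0.03, which was -0.12 without normoxia replicate 1 and turned to 0.05 without normoxia replicate 2, and 0 of 40 were separated.

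The 10 lowest fold changes among genes that averaged at least 1 TPM and did not overlap held Chchd10, a protein of the mitochondrial intermembrane space, with 14.9 and 8.61 TPM in normoxia and 3.10 and 0.928 on day 2 (-2.39, SE 0.51). Ogdhl, a relative of the 2-oxoglutarate dehydrogenase of the citric acid cycle, had 22.9 and 27.5 TPM against 6.71 and 7.64 (-1.74, SE 0.23). Cox6b2, an alternative subunit of complex IV known from testis, had 75.5 and 85.8 TPM against 22.1 and 31.3 (-1.59, SE 0.41), with 162 and 64.8 on day 7. Of the 3 genes, Ogdhl had the smallest SE.
Of the others, Nepn, nephrocan, had the lowest fold change (-3.10, SE 0.78), but its normoxic libraries were far apart at 2.16 and 17.5 TPM, against 0.366 and 0.249 on day 2. Cfc1, the co-receptor Cryptic of the Nodal pathway, had 1.64 and 12.8 TPM against 0.749 and 0.899 (-2.01, SE 0.78). Cpn1, the catalytic chain of carboxypeptidase N, had 7.30 and 15.0 TPM against 2.33 and 2.69 (-1.87, SE 0.35). Without normoxia replicate 2 the log2 fold changes of these 3 genes were -1.73, -0.69 and -1.38. Rfx6, a factor of gut endoderm, had 5.48 and 3.29 TPM against 1.23 and 0.925 (-1.60, SE 0.56). Gipr, the receptor of a gut hormone, had 2.91 and 3.57 TPM against 0.891 and 0.619 (-1.58, SE 0.22). Nudt11, an inositol phosphate hydrolase, had 3.62 and 3.98 TPM against 0.897 and 0.509 (-1.86, SE 0.27). Ihh completed the 10.

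At the other end, the 10 highest fold changes under the same rule included Myl9, Slc16a3 and Acta1, given above. Of the others, Mettl7b (chr10:128958274-128960988 in GRCm38), a methyltransferase of lipid droplets and the endoplasmic reticulum, had 2.16 and 1.87 TPM in normoxia, 9.99 and 14.7 on day 2, then 12.5 and 13.1 on day 7. Its log2 fold change was 2.33 (SE 0.23) with an adjusted p of 0.241 (limma), level with Ihh. Gm45521, a predicted gene, had 0.736 and 0.394 TPM against 4.90 and 3.55 (2.15, SE 0.27). Both had replicates that were close compared with the difference. S1pr5, a sphingosine 1-phosphate receptor, had 7.80 and 1.06 TPM in normoxia, 17.4 and 21.9 on day 2, then 2.11 and 3.88 on day 7 (2.48 on day 2, SE 0.71). Slc34a2, a phosphate carrier, had 49.3 and 6.97 TPM against 92.3 and 68.1 (2.05, SE 0.77). Muc1, a membrane mucin, had 10.5 and 2.83 TPM against 54.7 and 13.9 (2.22, SE 0.72). Phlda2, an imprinted gene that restrains placental growth, had 4.61 and 0.939 TPM against 9.28 and 11.8 (2.02, SE 0.79). In S1pr5, Slc34a2, Muc1 and Phlda2, normoxia replicate 1 held between 3.70 and 7.39 times the TPM of normoxia replicate 2.

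The 10 smallest unadjusted p-values added Nrk and Drp2 to genes already named. Nrk, an X-linked kinase that limits trophoblast growth in the placenta, had 7.21 and 4.79 TPM in normoxia and 22.4 and 21.3 on day 2 (1.81, SE 0.22). Drp2, dystrophin-related protein 2, had 34.2 and 26.9 TPM against 77.2 and 74.2 (1.31, SE 0.18). Day 2 replicates of both lay within a few TPM. Their adjusted p was 0.287 (limma), 0.0289 and 0.0742 without normoxia replicate 1, and up to 0.912 and 0.917 under the other alternatives.

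Secreted signals showed a mixed picture. Of 20 tested angiogenic factors and receptors (31 listed), 5 were separated and higher and 0 lower, against 3.85% and 3.56% of all genes. Their median was 0.28, which was 0.04 without normoxia replicate 2. Edn1, the vasoconstrictor endothelin-1, had 15.7 and 15.0 TPM in normoxia and 36.2 and 40.8 on day 2 (1.30, SE 0.21). Efna1, an ephrin ligand, had 47.1 and 12.6 TPM against 84.2 and 66.0 (1.59, SE 0.63). Flt1, a VEGF receptor, and Plaur, the urokinase receptor, were separated too, but normoxia replicate 1 held nearly as much as day 2. Flt1 had 27.5 and 11.5 TPM against 31.8 and 30.6, and Plaur had 188 and 67.9 against 193 and 208. Wnt11, a non-canonical Wnt ligand, had 25.5 and 20.1 TPM in normoxia, 41.9 and 70.8 on day 2, then 77.2 and 81.2 on day 7 (1.25 on day 2, SE 0.26). Genes that report on FGF-ERK signalling were split, with 2 of 19 tested (25 listed) separated and higher and 2 lower. Each made 10.5%, against 3.85% and 3.56% of all genes. Etv5, an ERK-induced factor, had 7.11 and 6.30 TPM against 3.01 and 1.31 (-1.51, SE 0.37), and Spry4, a feedback inhibitor, had 26.2 and 26.5 against 12.1 and 8.65 (-1.32, SE 0.40). Dusp5, an ERK phosphatase, had 0.601 and 0.424 TPM against 1.58 and 1.55 (1.03, SE 0.30), and Ier3, an immediate early gene, had 185 and 97.1 against 263 and 353 (1.18, SE 0.54).

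Of 10 imprinted growth regulators tested (20 listed), 4 were higher and 4 lower without overlap, against 19.6% and 21.4% of all genes. Their median was 0.25, and lay between 0.05 and 0.40 with single libraries left out. Separated were 3 that were higher and 1 that was lower, against 3.85% and 3.56% of all genes. Besides Phlda2 the higher ones were Peg10, a retrotransposon-derived gene of the placenta, with 622 and 352 TPM in normoxia and 1608 and 831 on day 2 (1.30, SE 0.49), and Sgce, its neighbour on the chromosome, with 6.09 and 6.06 against 10.7 and 8.53 (0.62, SE 0.19). Nnat was the lower one, at 5.17 and 5.70 TPM against 2.58 and 3.91. Of the D-type cyclins, Ccnd2 had 295 and 245 TPM against 362 and 459 (0.60, SE 0.18), and Ccnd1 had 10.4 and 19.5 against 6.86 and 8.05 (-0.89, SE 0.39). Pmaip1 (NOXA), a p53 target that promotes cell death, had 134 and 132 TPM against 82.8 and 64.9 (-0.86, SE 0.18). Its replicates were level in normoxia.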

How the data were processed

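RNA from XEN cells was sequenced by the authors as 75-bp read pairs in 6 libraries, 2 each from normoxia and from days 2 and 7 of hypoxia. Per the labels and the study's methods, total RNA was made into libraries with the KAPA RNA HyperPrep kit, and reads were trimmed with cutadapt 2.4, aligned to mm10 with STAR 2.7.5a and counted on genes with featureCounts. The authors filtered for protein-coding genes that passed 0.4 CPM in 2 or more of the 6 libraries (edgeR 3.26.8) and deposited TPM, which were used here.

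Deposited TPM times gene span (the distance from start to end, introns included) gave whole multiples of a step per library, within 0.05, for 98.5% to 98.9% of low values and in all 6 libraries for 11368 of 11538 genes. The deposited TPM are thus scaled by span, which lowers the TPM of genes with long introns. Levels of different genes are therefore not comparable. This holds too for the marker levels and the sums of TPM above, which only describe the libraries. Recovered reads were used for depth and for voom.

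Log2(TPM + 0.5) of genes above 0.4 TPM in at least 2 libraries was fitted with limma 3.58.1 (R 4.3.3) with a mean-variance trend to the 6 libraries, and day 2 was compared with normoxia and day 7 with day 2. DE genes had an adjusted p at or under 0.1 and over 1.5-fold. With 2 against 2 libraries an exact permutation test of a single gene cannot reach 0.05. The authors' count test was not run. The fit was also run on simulated reads, from which nothing is concluded here. Tables were handled in Python 3.11.15 (pandas 2.3.3, numpy 2.4.6) and drawn with matplotlib 3.10.9.

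Genes named were the 10 highest and 10 lowest fold changes among genes that averaged at least 1 TPM and did not overlap, the 10 smallest p, at most 5 separated members per list and direction, and members of the glycolysis, transport, oxygen sensing, hypoxia and primitive endoderm lists. The genes, lists, rules and comparison were chosen with earlier results of these data known. List names with no entry in the table were not tested. Alternatives were pseudocounts of 0.1 and 1, no filter or 1 TPM, the 4 libraries alone, the replicate block, median-ratio scaling, no trend, voom, other thresholds and each library left out. Whether libraries with the same replicate number pair could not be decided. Of the genes so named, 2 are not reported here. Libraries of other cell types were not analysed here.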

Additional observations from a re-analysis of the deposited data

Results flagged for a closer look

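Day 7 of hypoxia differed from day 2 for 4 genes, by the test of day 7 against day 2 in the same limma fit (n = 2 against 2). With no normoxic library of day 2 or day 7, time in culture cannot be told apart from time in hypoxia. All were higher on day 7. Col6a1 differed by 5.12 on the log2 scale (adjusted p 0.0101), Col6a2 by 3.92 (adjusted p 0.0938), Adm by 3.83 (adjusted p 0.0261) and Egln3 by 2.07 (adjusted p 0.0870). Against normoxia, the log2 fold changes on day 2 and day 7 were 1.33 and 6.45 for Col6a1, 0.42 and 4.34 for Col6a2, 0.33 and 4.16 for Adm, and 0.74 and 2.81 for Egln3, with the normoxic libraries shared by both. Both day 7 libraries of each gene lay above both day 2 libraries. Groups of 2 libraries are too small for a test of outlying libraries.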

How the results depend on the processing

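The count of DE genes was 0 under each alternative fit but one, and lay between 0 and 61 when single libraries were left out, with 61 without normoxia replicate 1. It was 563 at an unadjusted p under 0.05 with over 1.5-fold in place of the adjusted p. With the replicate block it was 0, the smallest adjusted p was 0.145 and 891 genes had an unadjusted p under 0.05. How far libraries with 1 number deviated from their group means correlated at 0.11 between normoxia and day 2. The correlation was 0.24 between normoxia and day 7 and -0.11 between day 2 and day 7. These correlations cannot decide whether libraries with 1 number pair. The main fit and the fit with the block both made 0 calls. With single libraries left out, separated genes numbered 419 to 804 higher and 388 to 827 lower, since 1 library against 2 overlap less often by construction. The median log2 fold change of glycolysis enzymes was then 0.31 to 0.65 and that of hypoxia genes outside glycolysis 0.24 to 0.36, and the latter was 0.24 with a pseudocount of 1. Of the 75 genes whose fold change is given, 74 kept its direction under each alternative. Adm did not, at -0.0775 without normoxia replicate 1 and 0.7278 without normoxia replicate 2. Of the 75, 17 passed the test in the fit without normoxia replicate 1. With 2 libraries a group, real changes may be missed, and the smallest change that the fit could detect was not estimated.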

Other observations

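The gene groups below are set beside all genes tested, of which 19.6% were higher and 21.4% lower without overlap, and 3.85% were separated and higher and 3.56% lower. Of 17 JmjC histone demethylases, enzymes that use oxygen as a substrate, 9 (52.9%) had non-overlapping libraries and were higher and 2 lower, against 25.6% higher in the bin of genes with the longest span, with a median log2 fold change of 0.11 and 0 separated. Of 12 heat shock genes, 7 (58.3%) were higher without overlap, 1 was lower and 2 were separated (median 0.21), with Hspb1 at 71.8 and 30.7 TPM in normoxia and 81.5 and 90.0 on day 2 (SE of the log2 fold change 0.44). Hspa1b was the other, at 17.8 and 23.1 TPM against 41.7 and 32.0, but it has a near-identical neighbour with which reads could be shared. Among 19 genes of collagen hydroxylation and crosslinking, the lysyl oxidases Loxl4 (0.671 and 0.270 TPM against 1.5 and 2.93) and Loxl2 (78.8 and 42.1 against 115 and 82.2) were separated and higher. Basement membrane genes (18), glycogen metabolism (9) and the MYC family (12) had 0 separated members, and medians of 0.07, 0.13 and 0.14. The first turned to -0.07 without normoxia replicate 1 and the last to -0.04 without normoxia replicate 2, and without day 2 replicate 1 the last was 0.01.

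In other lists, Gldc, the glycine cleavage enzyme, was lower at 56.3 and 23.3 TPM in normoxia against 18.1 and 16.4 on day 2. Me1, the cytosolic malic enzyme, was higher at 36.9 and 17.0 against 55.1 and 48.6, and Ovol1, an epithelial repressor, was higher at 0.589 and 0.475 against 2.17 and 2.23. Dppa5a and Utf1, known from pluripotent cells, were separated and higher (3.29 and 3.35 TPM against 6.79 and 11.4, and 8.85 and 8.54 against 16.2 and 16.2), and Gata3, known from trophoblast, had 2.26 and 2.87 against 4.82 and 6.20. Of the 13 pluripotent cell markers listed 7 had an entry, and Dppa5a and Utf1 made 28.6% of these. Bst2, an interferon-induced gene, had 7.89 and 15.9 TPM in normoxia, 5.31 and 4.50 on day 2, then 65.9 and 23.4 on day 7.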
